A study of Homo sapiens with 16 samples.

Results

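The actin cytoskeleton and contractile genes described here are 39 genes of actin, actin binding, contractile and mesenchymal cytoskeletal proteins, chosen as the rows of the gene count table that carry their symbols. All 39 were among the 25728 symbols of the table. The libraries came from total RNA of Kelly and LAN-1, established human neuroblastoma cell lines that both carry an amplified MYCN gene. Cells received GSK126, an inhibitor of the histone H3 lysine methyltransferase EZH2, at 2 uM, or the solvent DMSO, and were taken at day 5 or day 2. The 8 groups were therefore Kelly with GSK126 or DMSO at day 5, Kelly with GSK126 or DMSO at day 2, and the same 4 for LAN-1, with 2 libraries each. Each line stands for itself as a model, and the labels do not say whether the duplicates came from separate cultures, so p-values measure only the spread between these libraries.

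Actin monomers assemble into filaments that are nucleated by the Arp2/3 complex under the control of WAVE proteins, turned over by cofilin and profilin, coated by tropomyosins and calponins, and pulled by myosin II. Filaments are crosslinked by filamins, alpha-actinins and plastins and tied to the membrane by the ezrin, radixin and moesin family and by adhesion plaque proteins. EZH2 is the catalytic subunit of Polycomb repressive complex 2, which methylates histone H3 lysine 27 at silenced genes. In neuroblastoma, high levels of vimentin and of actin stress fibre genes are known as marks of a mesenchymal cell state, whereas GATA3 and catecholamine enzymes mark the adrenergic state.

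Library totals were low, between 912095 and 1666190 assigned reads with a median of 1394476, in a comparable range in Kelly (1102922 to 1666190) and LAN-1 (912095 to 1597429). Levels are given as CPM, read counts scaled to a common library total that was itself normalised by the trimmed mean of M-values (TMM), and the floor of 3 reads, the most that a count of 0 allows, was at most 3.31 CPM. Floors, and the intervals named as counting intervals, cover counting error only. All 9 of 9 markers of sympathetic neuroblasts, the lineage of neuroblastoma, had reads in both lines, with summed levels of 4873 to 7301 CPM in Kelly and 2450 to 2834 CPM in LAN-1. Reads alone do not single out the cell type, because all 9 fibroblast and mesenchymal markers had reads in both lines too, at sums of 249 to 485 CPM in Kelly and 128 to 197 CPM in LAN-1. Of 7 smooth muscle and pericyte markers, ACTG2 and MYOCD were at 0 in every library of both lines, while the pericyte gene RGS5 alone reached 7318 to 11437 CPM in Kelly, against 3.84 to 9.79 CPM in LAN-1. Of the 39 members, 34 passed the filter on low counts. The remaining 5, ACTA2, TAGLN, MYL9, CAPG and ANXA1, had between 1 and 21 reads over all 16 libraries and were not tested.

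The 5 members that rose in Kelly at day 5 are shown first by their promoters, so that the sequence at the start of each can be read beside its levels. Each line gives 300 bases, 250 before to 50 after a transcript start, read 5′ to 3′ on the gene's own strand from RefSeq on GRCh38.p14, with CpG dinucleotides in capitals. The RefSeq table held 34 of the 39 members with 56 starts, and for WASF3 the upstream start of a pair lying 20 bases apart is printed.
COTL1, chr16:84618029-84618328 (-): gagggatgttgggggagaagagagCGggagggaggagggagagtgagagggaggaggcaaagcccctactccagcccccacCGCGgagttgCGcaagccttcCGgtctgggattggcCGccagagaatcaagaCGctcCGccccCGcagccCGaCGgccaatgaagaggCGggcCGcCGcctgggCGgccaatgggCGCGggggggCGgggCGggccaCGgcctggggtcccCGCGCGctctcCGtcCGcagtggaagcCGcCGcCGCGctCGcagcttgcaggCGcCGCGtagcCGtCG
WASF3, chr13:26557433-26557732 (+): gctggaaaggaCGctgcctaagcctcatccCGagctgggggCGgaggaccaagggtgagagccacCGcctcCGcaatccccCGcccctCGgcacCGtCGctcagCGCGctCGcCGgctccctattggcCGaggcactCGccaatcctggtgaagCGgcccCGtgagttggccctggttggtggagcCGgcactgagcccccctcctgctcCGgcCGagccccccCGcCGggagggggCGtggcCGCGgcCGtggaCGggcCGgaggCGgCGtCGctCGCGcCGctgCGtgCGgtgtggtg
CNN2, chr19:1026358-1026657 (+): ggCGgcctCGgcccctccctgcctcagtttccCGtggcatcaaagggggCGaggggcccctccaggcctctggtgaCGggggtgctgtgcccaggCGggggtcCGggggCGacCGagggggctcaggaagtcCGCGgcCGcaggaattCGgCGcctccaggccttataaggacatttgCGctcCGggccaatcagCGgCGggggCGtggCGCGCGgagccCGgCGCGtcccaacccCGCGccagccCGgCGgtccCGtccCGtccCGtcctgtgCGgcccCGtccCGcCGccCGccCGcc
TPM1, chr15:63048239-63048538 (+): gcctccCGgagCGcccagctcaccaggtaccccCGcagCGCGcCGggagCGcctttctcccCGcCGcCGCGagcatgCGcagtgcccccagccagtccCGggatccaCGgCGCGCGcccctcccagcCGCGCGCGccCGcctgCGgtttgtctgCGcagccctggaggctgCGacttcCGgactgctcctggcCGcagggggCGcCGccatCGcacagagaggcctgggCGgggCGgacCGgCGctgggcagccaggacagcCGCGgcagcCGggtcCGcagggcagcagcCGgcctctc
VIM, chr10:17227991-17228290 (+): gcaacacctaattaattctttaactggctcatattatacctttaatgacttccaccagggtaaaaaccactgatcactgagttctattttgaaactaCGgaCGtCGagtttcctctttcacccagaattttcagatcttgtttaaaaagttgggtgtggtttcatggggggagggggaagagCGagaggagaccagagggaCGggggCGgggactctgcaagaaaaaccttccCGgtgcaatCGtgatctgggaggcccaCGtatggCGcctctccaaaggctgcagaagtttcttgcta

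CpG dinucleotides numbered 35 in the COTL1 window, 36 in WASF3, 38 in CNN2 and 39 in TPM1, against 10 in VIM. The median was 22.5 CpGs over the 56 member starts and 14.0 over all 35116 starts. The VIM window is the only VIM start in the table, and which start these cells use was not measured. The CNN2 window also holds CCTTATAAGG, a match to the CArG box bound by serum response factor, whose first base lies 89 bases before the start. CArG boxes were found on either strand in 5 of the 56 member starts (8.93%), in CNN2, ACTG1, FLNA, TPM4 and ACTN1, and in 454 of all 35116 starts (1.29%). None of the 5 printed windows held the AP-1 motif TGANTCA, the TEAD motif GGAATG or the E-box CACGTG on either strand. Over all member starts, AP-1 letters were present in 7 (12.5%, against 7.71% of all starts), TEAD letters in 10 (17.9%, against 14.0%) and the E-box in 2 (3.57%, against 7.26%).

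GSK126 raised 5 members in Kelly at day 5, namely COTL1, WASF3, TPM1, CNN2 and VIM, and lowered none of the 34 tested at an adjusted p under 0.05 (edgeR quasi-likelihood test, Benjamini-Hochberg adjustment over all 11863 tested genes). Over all tested genes 4.90% were called in that comparison, 3.30% higher and 1.60% lower. At day 2 in Kelly, CNN2 and VIM rose and no member fell, where 0.177% of all genes were called. In LAN-1 no member was called at day 5, where 3.66% of all genes were, and WASF3 alone rose at day 2, where 0.152% of all genes were called. For the count of 0 at day 5 in LAN-1, 7 members had an unadjusted p under 0.05. The share of all genes under that unadjusted threshold was not computed, so the 7 cannot be set against a background. There limma-voom called 0 of the 34, and DESeq2 called 0 of the 26 members to which it gave an adjusted p. Without replicate 1 of the LAN-1 DMSO libraries at day 5, TPM3 was called lower there (adjusted p = 0.0476, edgeR). In Kelly at day 2 both calls were lost without replicate 1 of the DMSO group or without replicate 1 of the GSK126 group.

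The medians over the members lay near 0. The median log2 fold change of the tested members in Kelly at day 5 was -0.010, against 0.0084 over all tested genes, with 17 members above and 17 below 0. In Kelly at day 2 the medians were 0.019 for the members and 0.0053 for all genes. In LAN-1 they were 0.047 for the members and 0 for all genes at day 5, and -0.099 for the members and 0 for all genes at day 2. In Kelly at day 5 the GSK126 and DMSO libraries did not overlap for 11 members that were higher and 8 that were lower, where 24.3% and 22.5% of all genes were in those classes. In LAN-1 at day 5 they did not overlap for 12 members that were higher and 7 that were lower, where 22.6% and 21.5% of all genes were. Without replicate 2 of the Kelly DMSO libraries at day 5, or without replicate 2 of the Kelly GSK126 libraries at day 5, 3 of the 5 calls were left, COTL1, WASF3 and VIM.

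**Figure D1:**
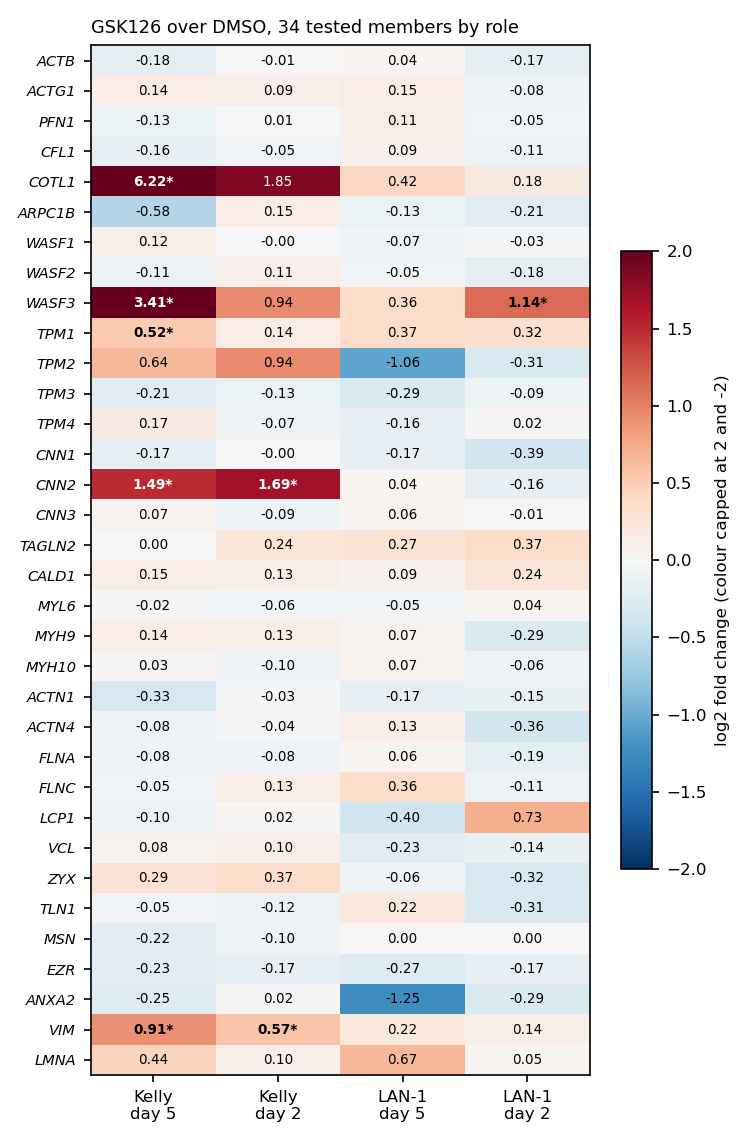
Log2 fold change of GSK126 over DMSO for each of the 34 tested members (rows, ordered by role) in Kelly at day 5 and day 2 and in LAN-1 at day 5 and day 2 (columns), with an asterisk at an adjusted p under 0.05. The 8 asterisks fall on COTL1, WASF3, TPM1, CNN2 and VIM, colour is capped at 2 and -2, and the 0.00 of MSN in LAN-1 stands for 0 reads in both groups.

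Among the actins and the proteins that turn filaments over, COTL1, which encodes coactosin-like protein 1, an F-actin binding protein of the cofilin fold (chr16:84599202-84651684 on GRCh37), had reads in Kelly mainly after GSK126. It had 4.10 and 9.17 CPM in Kelly with GSK126 at day 5, against 0 and 0 CPM in Kelly with DMSO at day 5. These levels rest on 5 and 12 reads in the GSK126 libraries and on none in the DMSO libraries. Both treated libraries were above both controls, and the gene was called (adjusted p = 0.000124, edgeR). COTL1 passed the filter on low counts through its LAN-1 libraries. When only the Kelly groups of day 5 were fitted, it was not tested. The observed level with GSK126 was 6.68-fold that of 3 reads over the DMSO group, its floor, without counting error in the 17 treated reads. At day 2 in Kelly, COTL1 had 1.84 and 1.28 CPM with GSK126 and 0.898 and 0 CPM with DMSO, 5 reads against 1. That ratio of 4.27 has an exact 95% counting interval of 0.477 to 202, and the gene was not called (adjusted p = 0.773, edgeR). In LAN-1 the gene was on in every library, at 63.7 and 74.9 CPM with GSK126 and 49.4 and 52.9 CPM with DMSO at day 5. The treated LAN-1 libraries lay above the controls, but the log2 fold change of 0.42 ± 0.19 (SE) did not pass the test (adjusted p = 0.232, edgeR).

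The other members of these roles did not pass the test under GSK126 in either line. ACTB and ACTG1, the cytoplasmic beta and gamma actins, had log2 fold changes of -0.18 ± 0.08 and 0.14 ± 0.08 (SE) in Kelly at day 5. The 95% intervals, taken from the SE with a normal quantile, were -0.34 to -0.03 for ACTB and -0.01 to 0.30 for ACTG1. They include the spread between libraries and are not adjusted for the number of genes tested. PFN1, profilin, and CFL1, cofilin, both of which speed the turnover of monomers, ranged from -0.16 to 0.11 over the 4 comparisons. ACTA2, smooth muscle alpha actin, had 21 reads in all, at 0 to 2.55 CPM in Kelly and 0 to 1.55 CPM in LAN-1. CAPG, a filament end capping protein, had 1 read over the 8 Kelly libraries, in replicate 2 of GSK126 at day 5, and 9 reads over the 8 LAN-1 libraries.

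WASF3 encodes WAVE3, which activates the Arp2/3 nucleator at the leading edge (chr13:27131820-27263085 on GRCh37). It had 46.7 and 33.6 CPM in Kelly with GSK126 at day 5, against 2.24 and 4.86 CPM in Kelly with DMSO at day 5. The groups did not overlap and the log2 fold change was 3.41 ± 0.36 (SE, adjusted p = 2.88e-13, edgeR), the smallest adjusted p among the members in that comparison. At day 2 in Kelly it had 17.1 and 9.57 CPM with GSK126 and 7.19 and 6.80 CPM with DMSO. The treated libraries were again higher, with a log2 fold change of 0.94 ± 0.39 (SE) that was not called (adjusted p = 0.523, edgeR). The change at day 5 exceeded that at day 2 in Kelly by 2.47 ± 0.60 (SE) on the log2 scale (adjusted p = 0.0240 for the difference, edgeR), where 0.379% of all genes had such a difference. It was lost without any 1 of 5 Kelly libraries, with an edgeR adjusted p of 0.106 when GSK126 replicate 1 of day 5 was left out, 0.249 for DMSO replicate 1 of day 5, 0.161 for GSK126 replicate 2 of day 2, and 0.158 and 0.150 for the DMSO duplicates of day 2. In LAN-1 no member changed more at one day than at the other with edgeR, where 0.539% of all genes did. There 5 members had an unadjusted p under 0.05, a share not computed over all genes. In that comparison limma-voom called 0 and DESeq2 called 0 of the 21 with an adjusted p.

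In LAN-1, WASF3 rose at day 2, to 40.0 and 38.7 CPM with GSK126, against 15.4 and 20.4 CPM with DMSO. The log2 fold change was 1.14 ± 0.25 (SE, adjusted p = 0.0132, edgeR), and it was lost without any 1 of those 4 libraries (edgeR adjusted p between 0.0851 and 0.531) and with DESeq2 (adjusted p = 0.985). At day 5 LAN-1 had 39.9 and 41.9 CPM with GSK126 and 29.2 and 34.5 CPM with DMSO. The treated levels of both days lay close together while the DMSO level was higher at day 5, and the day 5 log2 fold change of 0.36 ± 0.23 (SE) was not called (adjusted p = 0.455, edgeR). The 2 other WAVE genes, WASF1 and WASF2, stayed between -0.18 and 0.12 on the log2 scale in all 4 comparisons. ARPC1B, a subunit of Arp2/3, had -0.58 ± 0.23 (SE) in Kelly at day 5, at 35.2 and 22.2 CPM with GSK126 and 44.1 and 41.3 CPM with DMSO, and was not called (adjusted p = 0.158, edgeR).

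**Figure D2:**
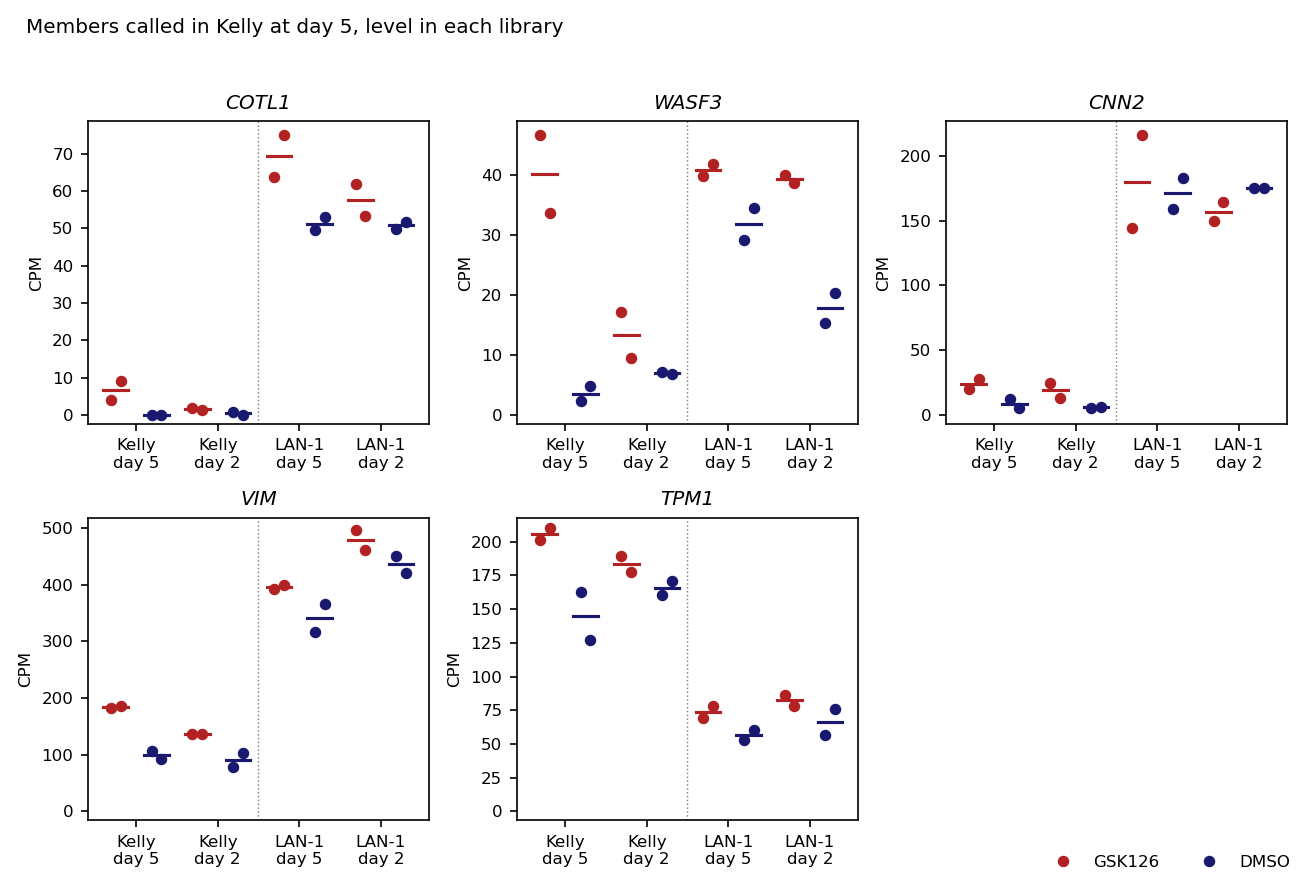
CPM in each library (points) and group mean (short lines) of COTL1, WASF3, CNN2, VIM and TPM1 in Kelly and LAN-1 at day 5 and day 2, with GSK126 in red left of DMSO in dark blue. In Kelly at day 5 both GSK126 libraries lie above both DMSO libraries in all 5 panels, and for COTL1, CNN2 and VIM even the treated Kelly libraries stay below every LAN-1 library.

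Among the tropomyosins, which lie along actin filaments and set which proteins can bind them, TPM1 rose in Kelly at day 5 (chr15:63334819-63364114 on GRCh37). It had 202 and 210.1 CPM with GSK126, against 163 and 127 CPM with DMSO. The groups did not overlap and the log2 fold change was 0.52 ± 0.12 (SE, adjusted p = 0.00198, edgeR). The call was lost without replicate 2 of the DMSO group, where the log2 fold change was 0.33 (adjusted p = 0.309, edgeR), and without replicate 2 of the GSK126 group (adjusted p = 0.0644). With DESeq2 TPM1 was not called either (adjusted p = 0.111). TPM1 was also higher in both treated libraries than in both controls in the other 3 comparisons, by 0.14 to 0.37 on the log2 scale, none of them called. TPM3 moved the other way in all 4 comparisons, between -0.29 and -0.09, with no call in any of them. TPM4 ranged from -0.16 to 0.17, and TPM2, at 1.80 to 8.20 CPM in Kelly and 2.20 to 10.9 CPM in LAN-1, from -1.06 to 0.94, again without a call.

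In the calponin family, whose members bind actin and tropomyosin and restrain myosin, CNN2 rose in Kelly at both days (chr19:1026585-1039067 on GRCh37). At day 5 it had 19.7 and 27.5 CPM with GSK126, against 12.0 and 5.47 CPM with DMSO, a log2 fold change of 1.49 ± 0.36 (SE, adjusted p = 0.00329, edgeR). At day 2 it had 24.5 and 13.4 CPM with GSK126, against 5.39 and 6.18 CPM with DMSO, a log2 fold change of 1.69 ± 0.40 (SE, adjusted p = 0.0409, edgeR). At each day the lower treated library was above the higher control. The day 5 call was lost without replicate 2 of the DMSO group (log2 0.98, adjusted p = 0.268, edgeR) and without replicate 2 of the GSK126 group (adjusted p = 0.160). The day 2 call was lost without either DMSO library (edgeR adjusted p = 0.327 and 0.212) and without replicate 1 of the GSK126 group (adjusted p = 0.730).

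In LAN-1, CNN2 was abundant and did not pass the test, at 144 and 216 CPM with GSK126 and 159 and 183 CPM with DMSO at day 5. At day 2 LAN-1 had 149 and 164 CPM with GSK126 and 175 and 175 CPM with DMSO. The groups overlapped at day 5, and at day 2 the treated libraries were the lower ones, with log2 fold changes of 0.04 ± 0.13 and -0.16 ± 0.13 (SE). Of the relatives of CNN2, CNN3, the abundant acidic calponin, stayed between -0.09 and 0.07 in all 4 comparisons. TAGLN2, transgelin 2, and CALD1, caldesmon, lay between 0.00 and 0.37 without a call. CNN1, the smooth muscle calponin, was low at 1.80 to 6.18 CPM in Kelly and 2.80 to 7.71 CPM in LAN-1. TAGLN, the smooth muscle transgelin, had 7 reads over the Kelly libraries and 10 over the LAN-1 libraries.

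No myosin II, crosslinker, adhesion plaque or membrane linker gene was called under GSK126 at either day in either line. The heavy chains MYH9 and MYH10 and the essential light chain MYL6 ranged from -0.29 to 0.14 on the log2 scale, and MYL9, the smooth muscle regulatory light chain, had 1 read in the 16 libraries. ACTN1, an alpha-actinin of stress fibres, had -0.33 ± 0.12 (SE) in Kelly at day 5, at 183 and 149 CPM with GSK126 and 203 and 212 CPM with DMSO (adjusted p = 0.0850, edgeR). ACTN4, its cytoplasmic relative, and the filamins FLNA and FLNC, which crosslink filaments into networks, ranged from -0.36 to 0.36 over the 4 comparisons. In the adhesion plaque, VCL, vinculin, TLN1, talin, and ZYX, zyxin, ranged from -0.32 to 0.37. LCP1, the plastin of blood cells, and ANXA2, an annexin, did not pass the test either, with few reads in LAN-1.

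EZR and MSN encode ezrin and moesin, which link filaments to the plasma membrane. EZR had 167 and 157 CPM with GSK126 and 199.5 and 182 CPM with DMSO in Kelly at day 5, and 167 and 166 CPM with GSK126 and 183 and 189 CPM with DMSO in Kelly at day 2. In LAN-1 it had 317 and 298 CPM with GSK126 and 369.8 and 371 CPM with DMSO at day 5, and 277 and 293 CPM with GSK126 and 314 and 327 CPM with DMSO at day 2. Both treated libraries lay below both controls in all 4 pairs of groups, although no single comparison was called. Averaged over the 4 differences, EZR was lower with GSK126 by -0.21 ± 0.05 on the log2 scale (SE, adjusted p = 0.00570, edgeR). MSN in Kelly averaged 440 CPM with GSK126 and 512 CPM with DMSO at day 5, and 474 and 505 CPM at day 2. The 3 tested genes of this role, EZR, MSN and ANXA2, had log2 fold changes of -0.25 to -0.22 in Kelly at day 5. At day 2 in Kelly they had -0.17 to 0.02, so the small fall in Kelly at day 5 was not particular to EZR.

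Over the mean of the 4 differences, 5 members rose and 2 fell, where 6.47% of all genes were called, 4.32% higher and 2.16% lower. This mean uses the same libraries as the 4 comparisons. The 5 higher ones were COTL1 (2.17 ± 0.47, SE), WASF3 (1.46 ± 0.16), CNN2 (0.76 ± 0.14), VIM (0.46 ± 0.06) and TPM1 (0.34 ± 0.07). Besides EZR the lower one was TPM3, by -0.18 ± 0.05 (SE, adjusted p = 0.0126, edgeR), which was lost without replicate 2 of the LAN-1 DMSO libraries at day 5 (adjusted p = 0.0863, edgeR) and with DESeq2 (adjusted p = 0.0702). TPM3 had 277 and 289 CPM with GSK126 and 338 and 316 CPM with DMSO in Kelly at day 5, and 299 and 274 CPM with GSK126 and 317 and 388 CPM with DMSO in LAN-1 at day 5. At day 2 it had 298 and 293 CPM with GSK126 and 325 and 322 CPM with DMSO in Kelly, and 335 and 326 CPM with GSK126 and 357 and 348 CPM with DMSO in LAN-1. In each of the 4 pairs of groups the treated libraries were below the controls.

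VIM, the intermediate filament protein vimentin, rose in Kelly at both days (chr10:17270240-17279592 on GRCh37). At day 5 it had 183 and 186 CPM with GSK126, against 105 and 91.8 CPM with DMSO, a log2 fold change of 0.91 ± 0.13 (SE, adjusted p = 2.04e-08, edgeR). At day 2 it had 137 and 137 CPM with GSK126, against 78.2 and 102 CPM with DMSO, a log2 fold change of 0.57 ± 0.13 (SE, adjusted p = 0.0319, edgeR). The treated libraries agreed closely with each other and stood above both controls. The day 2 call was lost without replicate 1 of the DMSO group (log2 0.42, adjusted p = 0.559, edgeR) and without either GSK126 library (adjusted p = 0.228 and 0.219). In LAN-1, VIM had 392 and 399 CPM with GSK126 and 317 and 366 CPM with DMSO at day 5, and 497 and 462 CPM with GSK126 and 450.1 and 421 CPM with DMSO at day 2. The treated LAN-1 libraries were higher at both days, by 0.22 ± 0.10 and 0.14 ± 0.09 (SE), and neither was called (adjusted p = 0.241 and 0.862, edgeR). LMNA, the nuclear lamina protein lamin A/C, had 90.2 and 63.4 CPM with GSK126 and 52.3 and 59.6 CPM with DMSO in Kelly at day 5. Both treated libraries were higher, by 0.44 ± 0.18 (SE), without a call (adjusted p = 0.152, edgeR).

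Summed levels of some cell type markers also differed between GSK126 and DMSO at day 5, not always in the line with called members. The 9 neuroblast markers summed to 4873 to 5128 CPM in Kelly with GSK126 and 7058 to 7193 CPM in Kelly with DMSO, and to 2450 to 2811 CPM in LAN-1 with GSK126 and 2497 to 2547 CPM in LAN-1 with DMSO. The 9 fibroblast and mesenchymal markers summed to 457.5 to 485 CPM in Kelly with GSK126 and 299.7 to 316 CPM in Kelly with DMSO, and to 189 to 197 CPM in LAN-1 with GSK126 and 133 to 143 CPM in LAN-1 with DMSO. So the neuroblast sum was lower with GSK126 in Kelly and overlapped in LAN-1, and the fibroblast sum was higher in both lines. At day 2 the fibroblast sums overlapped in Kelly, and in LAN-1 they were 173 CPM in both GSK126 libraries and 128 to 137 CPM with DMSO. DCN, a defining fibroblast gene, had reads at day 5 in the GSK126 group and none in the DMSO group of each line. At day 2 DCN had none in Kelly and, in LAN-1, none with GSK126 and reads with DMSO. The DCN read numbers are not given here and may lie within the floor of 3 reads. No change of DCN is therefore read from these groups.

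Schwann cell and glia markers, 7 in number, summed to 10.7 to 16.0 CPM in Kelly with GSK126 at day 5 and 4.48 to 4.86 CPM in Kelly with DMSO at day 5. S100B and FOXD3 were at 0 in both groups, and SOX10 with DMSO only. The 6 endothelial markers summed to 8.40 to 17.2 CPM with GSK126 and 2.24 to 3.04 CPM with DMSO in the same Kelly groups. CDH5 and EMCN were at 0 in both groups, and PECAM1 and TEK with DMSO only. The haematopoietic sum there was 19.7 to 19.9 CPM with GSK126 and 21.7 to 24.3 CPM with DMSO, and the epithelial sums overlapped. In LAN-1 at day 5 the Schwann cell, endothelial, haematopoietic and epithelial sums overlapped. The smooth muscle and pericyte sum, nearly all RGS5 in Kelly, was 7341 to 8289 CPM with GSK126 and 10525 to 11446 CPM with DMSO in Kelly at day 5. DES, in that list, was at 0 in Kelly with DMSO and had reads with GSK126, in a number that is not given here and may lie within the floor of 3 reads. In LAN-1 the smooth muscle sum was 150.4 to 169.7 CPM with GSK126 and 118 to 124 CPM with DMSO at day 5, so it was lower with GSK126 in Kelly and higher in LAN-1, with ACTG2 and MYOCD at 0 throughout. The part of such cells in the levels of COTL1, WASF3, CNN2, VIM and TPM1 was not tested, and in bulk RNA a change in the number of cells of a type and a change in RNA per cell cannot be told apart.

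The change under GSK126 was larger in Kelly than in LAN-1 at day 5 for 4 members, where 1.85% of all genes had a called difference between lines, 0.936% higher and 0.919% lower. The log2 fold change in Kelly minus that in LAN-1 was 5.81 ± 1.29 (SE) for COTL1, 3.05 ± 0.45 for WASF3, 1.45 ± 0.38 for CNN2 and 0.69 ± 0.16 for VIM (adjusted p = 0.00274, 7.84e-07, 0.0192 and 0.00473, edgeR). Without replicate 2 of the Kelly DMSO libraries at day 5 only WASF3 was left, with an edgeR adjusted p of 0.100 for COTL1, 0.429 for CNN2 and 0.132 for VIM. Without replicate 2 of the Kelly GSK126 libraries at day 5, COTL1 and CNN2 were lost (edgeR adjusted p = 0.110 and 0.307). Without replicate 2 of the LAN-1 DMSO libraries at day 5, CNN2 and VIM were lost (edgeR adjusted p = 0.0699 and 0.0741), and without replicate 1 of the LAN-1 GSK126 libraries, CNN2 (0.0551). With DESeq2 CNN2 was not called (adjusted p = 0.0879). For TPM1 the difference was 0.15 ± 0.22 (SE, adjusted p = 0.829, edgeR). At day 2 edgeR called no member different between lines in its change, where 0.00843% of all genes were, and DESeq2 and limma-voom called 0. Of the members 4 had an unadjusted p under 0.05 at day 2, a share not computed over all genes. CNN2 had 1.85 ± 0.42 there (SE, adjusted p = 0.158, edgeR), and it was called in 5 of the alternative fits, among them the one without replicate 2 of the Kelly GSK126 libraries at day 2.

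The lines themselves differed in most members. In DMSO, 15 of the 34 tested members were higher and 12 lower in Kelly than in LAN-1, against 34.2% and 33.5% of all tested genes, so that the total of 27 stands beside a background of 67.7% called. The 4 libraries of each line did not overlap for 14 members higher and 11 lower in Kelly, where 28.9% and 28.7% of all genes were in those classes. The median log2 fold change was 0.12 for the members and 0.015 for all genes. These are differences between 2 cell lines, with 1 line on each side.

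**Figure D3:**
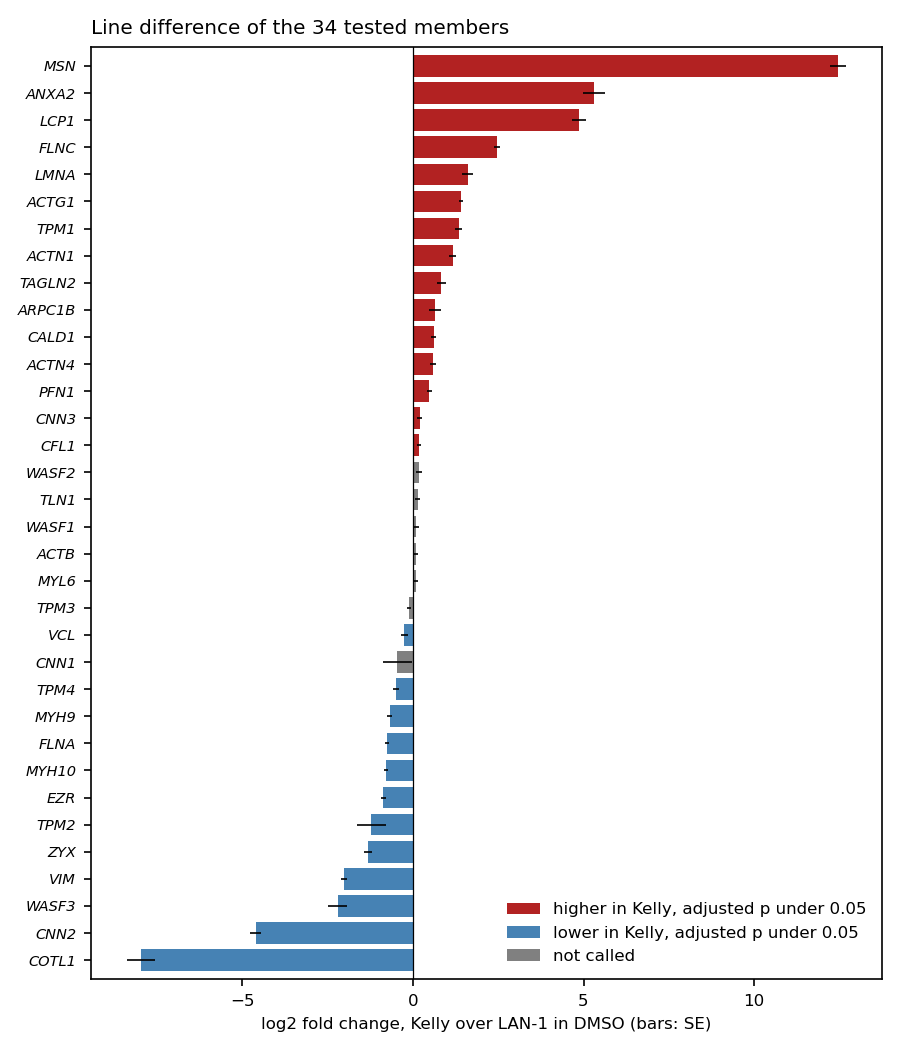
Log2 fold change of Kelly over LAN-1 in DMSO (mean of both days, bars with SE) for the 34 tested members, red where higher and blue where lower in Kelly at an adjusted p under 0.05 and grey where not called. MSN, ANXA2 and LCP1 lie at one end and COTL1 and CNN2 at the other, and the lengths of the MSN and COTL1 bars are fitted values against 0 reads in LAN-1 and 1 read in Kelly.

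The membrane linkers held the widest contrast. MSN (chrX:64808257-64961793 on GRCh37) had 499 and 525 CPM in Kelly with DMSO at day 5 and 479 and 530.5 CPM at day 2, against 0 CPM in all 4 LAN-1 DMSO libraries. With 2923 reads against 0, its observed level in Kelly was 965-fold that of 3 reads over the LAN-1 group, the floor (adjusted p = 1.63e-78, edgeR). GSK126 did not bring a read of MSN to any LAN-1 library, and 0 reads there allow at most 3.31 CPM in the shallowest. EZR ran the other way, at 199.5 and 182 CPM in Kelly and 369.8 and 371 CPM in LAN-1 with DMSO at day 5, with a log2 fold change over both days of -0.87 ± 0.07 (SE, adjusted p = 3.05e-21, edgeR). Radixin, the third gene of that family and chosen after its values were seen, had 137 to 157 CPM over the 8 Kelly libraries and 44.1 to 60.4 CPM over the 8 LAN-1 libraries. LAN-1 thus had reads of EZR and RDX and none of MSN.

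ANXA2, a calcium-dependent membrane and actin binding annexin, had 42.6 and 45.6 CPM in Kelly with DMSO at day 5 and 41.3 and 51.3 CPM at day 2. In LAN-1 with DMSO it had 0.696 and 1.68 CPM at day 5 and 1.28 and 0.679 CPM at day 2. The lines did not overlap and the log2 fold change was 5.31 ± 0.32 (SE, adjusted p = 1.20e-31, edgeR). S100A10, whose protein forms a complex with annexin A2 and which was looked up after these values were seen, had 1 read over the Kelly libraries and 0 over the LAN-1 libraries. ANXA1, a related annexin, had 0 reads in every DMSO library and 1 read in all, in replicate 2 of Kelly with GSK126 at day 5.

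Among the crosslinkers, LCP1 had 129 and 119 CPM in Kelly with DMSO at day 5 and 115 and 99.5 CPM at day 2. In LAN-1 with DMSO it had 4.87 and 1.68 CPM at day 5 and 5.12 and 3.40 CPM at day 2, so that the log2 fold change was 4.87 ± 0.20 (SE, adjusted p = 9.71e-47, edgeR). The 7 haematopoietic markers summed to 17.1 to 31.9 CPM in Kelly, of which CORO1A, an actin binding coronin, made up 17.1 to 30.6 CPM, and to 36.4 to 57.1 CPM in LAN-1. PTPRC was the only marker of that list at 0 in all 8 Kelly libraries, and the other 6 had reads in Kelly. The part of blood cells in the LCP1 level was not tested. FLNC, the muscle filamin, had 373.7 and 405 CPM in Kelly with DMSO at day 5 and 309 and 409 CPM at day 2, against 62.7 and 45.4 CPM in LAN-1 at day 5 and 86.4 and 85.6 CPM at day 2. Its log2 fold change was 2.45 ± 0.09 (SE, adjusted p = 3.30e-51, edgeR), while the ubiquitous FLNA was lower in Kelly, by -0.76 ± 0.06 (SE).

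**Figure D4:**
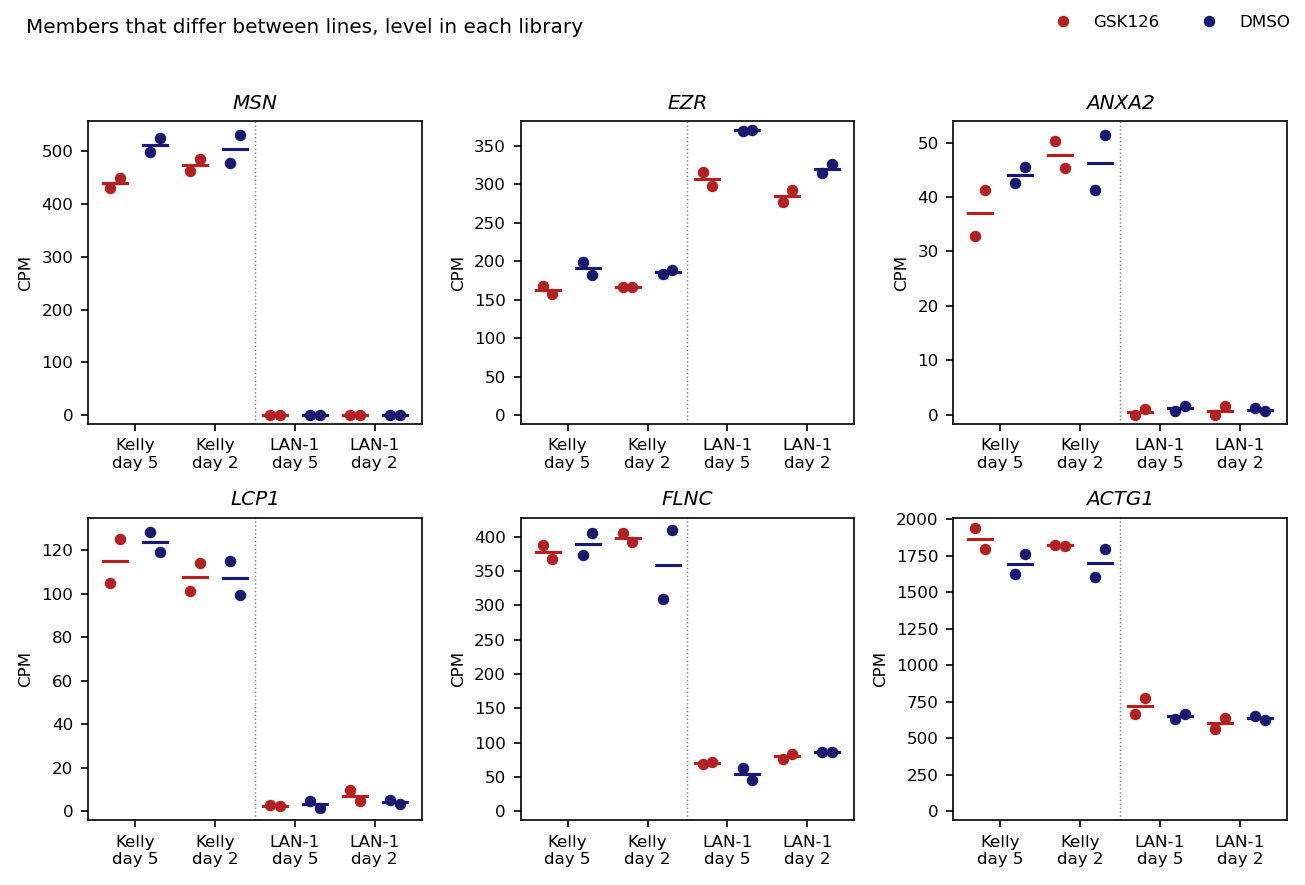
CPM in each library (points) and group mean (short lines) of MSN, EZR, ANXA2, LCP1, FLNC and ACTG1 in Kelly and LAN-1 at day 5 and day 2, with GSK126 in red left of DMSO in dark blue. All 8 Kelly libraries lie above all 8 LAN-1 libraries for MSN, ANXA2, LCP1, FLNC and ACTG1, and below them for EZR.

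Of the 5 members that rose under GSK126 in Kelly, 4 were lower in Kelly than in LAN-1 without it. CNN2 had 12.0 and 5.47 CPM in Kelly and 159 and 183 CPM in LAN-1 with DMSO at day 5, a log2 fold change over both days of -4.60 ± 0.17 (SE, adjusted p = 1.21e-46, edgeR). COTL1 had 1 read over the 4 Kelly DMSO libraries and 288 over the 4 LAN-1 DMSO libraries, a ratio of 0.00344 with an exact 95% counting interval of 8.68e-05 to 0.0193. WASF3 and VIM were lower by -2.21 ± 0.27 and -2.02 ± 0.08 (SE). TPM1, the fifth, was higher in Kelly, by 1.34 ± 0.10 (SE).

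Within the families, relatives differed between the lines to unequal extents, in some families in opposite directions. ACTG1 was higher in Kelly by 1.40 ± 0.06 (SE), whereas ACTB, at 0.08 ± 0.06, was not called (adjusted p = 0.184, edgeR). TPM1 was higher in Kelly, TPM2 and TPM4 were lower by -1.21 ± 0.42 and -0.49 ± 0.09 (SE), and TPM3 was not called. CNN3 was higher by 0.20 ± 0.07 (SE) beside the low CNN2. The myosin heavy chains MYH9 and MYH10 were both lower, by -0.68 ± 0.07 and -0.80 ± 0.06 (SE), and both alpha-actinins were higher, ACTN1 by 1.16 ± 0.09 and ACTN4 by 0.59 ± 0.08. ZYX was lower in Kelly by -1.32 ± 0.13 (SE), VCL by -0.25 ± 0.10, and TLN1 was not called. LMNA was higher in Kelly by 1.61 ± 0.16 (SE), opposite to VIM.

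The 2 cytoplasmic actins share most of their coding sequence, and CFL1, PFN1, MYL6, TPM3, ANXA2 and MSN have processed copies elsewhere in the genome. How reads with several matches were counted is not given in the sources used here, so that the split between such copies is uncertain. The strand setting of the counting is not given either, and VIM, WASF3, TPM1 and CNN2 overlap annotated antisense transcripts. VIM-AS1 had 5 reads beside 5790 of VIM, and the partners of WASF3, TPM1 and CNN2 are not in the count table. Some opposite-strand coding genes had more reads than the member they overlap. These were PDAP1 (2738, ARPC1B 675), SMARCC2 (4354, MYL6 3365), AP3M1 (2794, VCL 2298), PCSK7 (244, TAGLN 17) and FAS (41, ACTA2 21). The other opposite-strand partners in the count table had fewer.

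The 4 genes called lower in Kelly and raised by GSK126 were also compared between lines in DMSO libraries of day 2, which the day 5 contrast does not use. In DMSO at day 2, 12 members were called lower in Kelly, where 27.6% of all genes were, and 4 of the 12 (33.3%) rose in Kelly at day 5, namely COTL1, WASF3, CNN2 and VIM. Over all genes 174 of 3278 called lower (5.31%) rose. Of the 13 members called higher in Kelly, where 27.7% of all genes were, 1 rose, against 124 of 3282 over all genes (3.78%), and of the 9 members with no call none did, against 93 of 5303 (1.75%). This grouping was chosen after the values were seen, with the 4 genes already known to be raised and lower in Kelly, so it is a description and no test. COTL1, with 1 read over the 4 Kelly DMSO libraries, had no room to fall. It also passed the filter on low counts only through LAN-1, where it is high, so its place among the genes lower in Kelly was set beforehand.

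**Figure D5:**
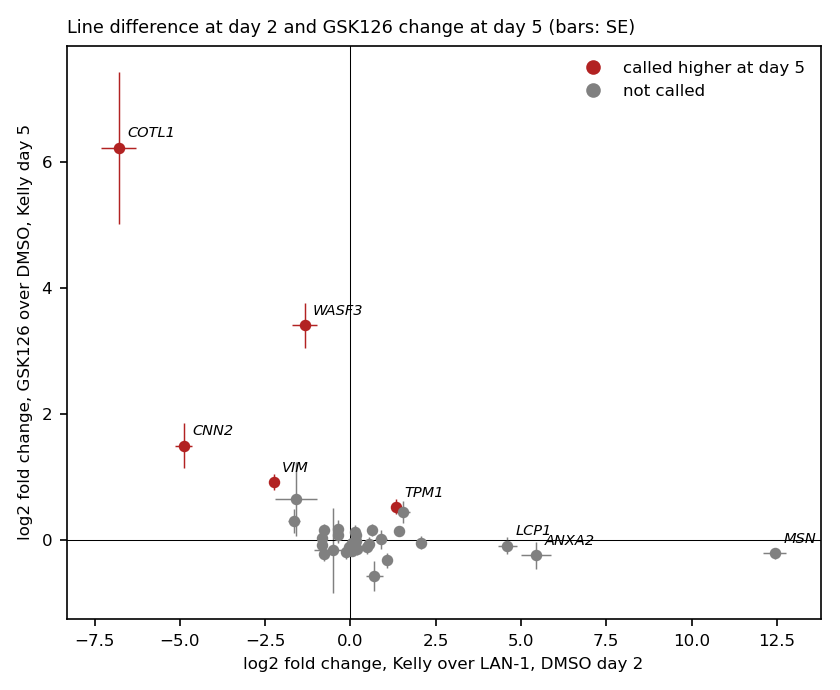
Log2 fold change of GSK126 over DMSO in Kelly at day 5 (vertical axis) against the log2 fold change of Kelly over LAN-1 in DMSO at day 2 (horizontal axis) for the 34 tested members, with SE bars and red points where called higher at day 5. The axes share no library, and COTL1, WASF3, CNN2 and VIM lie at upper left, TPM1 at right and MSN, ANXA2 and LCP1 near 0 at far right.

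The gap between the lines at day 5 was smaller with GSK126 for these genes, to different extents. The log2 fold change of Kelly over LAN-1 for WASF3 was -0.03 ± 0.22 (SE) with GSK126 and -3.07 ± 0.38 with DMSO at day 5, and -1.54 ± 0.27 with GSK126 and -1.34 ± 0.37 with DMSO at day 2. For VIM it was -1.10 ± 0.11 (SE) with GSK126 and -1.79 ± 0.12 with DMSO at day 5. CNN2 stayed far apart, at -2.88 ± 0.20 (SE) with GSK126 and -4.33 ± 0.23 with DMSO at day 5. COTL1 was -3.33 ± 0.30 (SE) with GSK126 at day 5, where treated Kelly libraries held 17 reads and treated LAN-1 libraries 159. So WASF3 in treated Kelly libraries lay at the level of LAN-1, at 46.7 and 33.6 CPM in Kelly and 39.9 and 41.9 CPM in LAN-1, while the other 3 remained below it.

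Around the members, 9 lists of other cytoskeletal genes held 165 genes, of which 139 were tested. In Kelly at day 5, 10 rose and 3 fell, where 3.30% and 1.60% of all genes did, and in LAN-1 at day 5, 6 rose and 1 fell, where 2.45% and 1.21% of all genes did. The counts of single lists that follow stand beside the same shares. The median of the tested list genes was 0.065 in Kelly at day 5, against 0.0084 for all genes, and 0.0085 in LAN-1 at day 5, against 0 for all genes. At day 2, 0 were called in Kelly and 1 rose in LAN-1.

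In Kelly at day 5 the focal adhesion list (18 tested, 2 higher) held TNS3, a tensin that links integrins to actin, at 184 and 174 CPM with GSK126 and 88.2 and 79.0 CPM with DMSO, and FERMT1, a kindlin. The log2 fold changes were 1.10 ± 0.14 and 1.09 ± 0.35 (SE, adjusted p = 3.92e-10 and 0.0431, edgeR). Of 14 myosins outside the members, 3 rose, MYO1D by 2.55 ± 0.75 (SE), MYO6 by 0.48 ± 0.14 and MYO5A by 0.44 ± 0.13, all of them motors of membrane or cargo transport. The MYO1D change rests on 21 reads with GSK126 and 4 with DMSO, near the floor at 0.747 and 1.82 CPM with DMSO. GSN, the filament severing protein gelsolin, rose by 1.44 ± 0.40 (SE) and TMOD2, a neuronal tropomodulin that caps pointed ends, by 0.500 ± 0.12, out of 16 genes of monomer binding, severing and capping. GSN had 44 reads with GSK126 and 19 with DMSO. Each of the 7 had treated libraries above both controls.

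In the remaining lists single genes changed in Kelly at day 5. CYFIP2, a subunit of the WAVE complex, rose by 0.42 ± 0.13 (SE) among 16 genes of the Arp2/3, WAVE and WASP complexes. DSTN, destrin, rose by 0.37 ± 0.12 (SE) among 9 factors and targets of the MRTF and SRF pathway. EPB41, a membrane skeleton protein, fell by 0.34 on the log2 scale (SE 0.10) and NEFH, the heavy neurofilament, by 0.27 (SE 0.09). None of the 19 crosslinking and bundling genes passed the test.

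AHNAK, a very large membrane-associated scaffold protein, rose in both lines at day 5. It had 366 and 352 CPM with GSK126 and 164 and 184 CPM with DMSO in Kelly, and 949 and 831 CPM with GSK126 and 345 and 345 CPM with DMSO in LAN-1. The groups did not overlap in either line, and the log2 fold changes were 1.04 ± 0.11 in Kelly and 1.37 ± 0.09 in LAN-1 (SE, adjusted p = 8.03e-14 and 8.55e-25, edgeR). In LAN-1 4 of the 12 tested intermediate filament genes outside the members rose, among them DES, desmin, by 1.79 ± 0.39 (SE), PRPH, peripherin of peripheral neurons, by 1.39 ± 0.18, and NES, nestin, by 0.43 ± 0.11. SYNPO, the actin binding protein synaptopodin, rose by 1.25 ± 0.31 (SE) and PLS3, a plastin related to LCP1, fell by 0.47 (SE 0.11) among 19 crosslinking genes of LAN-1.

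Culture time alone moved 1 member. In DMSO, FLNC fell in LAN-1 to 62.7 and 45.4 CPM at day 5, against 86.4 and 85.6 CPM at day 2, a log2 fold change of -0.65 ± 0.17 (SE, adjusted p = 0.0363, edgeR), where 0.438% of all genes were called. The groups did not overlap, but the call was lost without either day 2 library (edgeR adjusted p = 0.374 and 0.194) and without replicate 2 of day 5 (adjusted p = 0.700). VIM had -0.36 ± 0.09 (SE) in the same comparison, with an edgeR adjusted p of 0.0607, and it was called in 5 of the alternative fits. In Kelly 0 of the 34 members were called with edgeR over time, where 0.236% of all genes were higher and 0.202% lower at day 5. Of these members 2 had an unadjusted p under 0.05, a share not computed over all genes. Over time in Kelly limma-voom called 0, and DESeq2 called 0 of the 25 with an adjusted p.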

How the data were processed

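RNA of 16 libraries was sequenced after RNeasy extraction and a standard Illumina library preparation, per the labels' protocols. The deposited values are whole-read counts per gene symbol, made by the authors with FastQC, TopHat2 and featureCounts on GRCh37 (hg19), per the submitters' processing notes. Versions, annotation, strand setting and the treatment of reads with several matches are not given in the sources used here. Counts were fitted for all 16 libraries together, with 1 mean for each of 8 groups, in edgeR 4.0.16 (R 4.3.3) with TMM scaling and the robust quasi-likelihood test. The low-count filter (minimum count 10) kept 11863 symbols, p-values were adjusted by Benjamini-Hochberg over all of them, and a call is an adjusted p under 0.05. SE is the log2 fold change divided by the square root of F. The fit had 8 residual degrees of freedom and a common biological coefficient of variation of 5.31%. The count table also held 28 symbols turned into dates, none of them a member.

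A fold against a group with 0 reads was set against 3 reads over that group, without counting error in the reads of the other group. Levels of different genes are not ranked. Gene positions come from an annotation on GRCh37. Alternatives were RLE and upper quartile scaling, no filter and a minimum count of 30, DESeq2 1.42.0, limma-voom (limma 3.58.1), only the groups compared, a replicate block and each library left out. Duplicates had a chi-square per degree of freedom of 1.10 to 1.93, none had identical values, and each counted as its own sample. On simulated counts for GSK126 over DMSO in Kelly at day 5 (11757 genes, 200 changed), 49.3% of 1.5-fold, 73.1% of 2-fold and 86.4% of 4-fold changes were recovered, with 6 unchanged genes called.

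The members, the roles, the 9 pathway lists and the cell type markers were chosen with earlier results of these data known. All members are accounted for by role. Library values are given for members called under GSK126 and for the 4 line differences of largest size in each direction that average 2 CPM or more in either line, while ARPC1B, ACTN1, LMNA, ACTG1, RDX, S100A10, RGS5, PTPRC, CORO1A and the line difference by condition were chosen after their values were seen. Some results of one pathway list are not reported here.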

Additional observations from a re-analysis of the deposited data

Results flagged for a closer look

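The change under GSK126 in Kelly differed from its comparison for 4 members, by a test of the difference itself (edgeR). In Kelly, WASF3 changed more at day 5 than at day 2, by 2.47 ± 0.60 on the log2 scale (SE, adjusted p = 0.0240). At day 5 the change in Kelly exceeded that in LAN-1 by 5.81 ± 1.29 for COTL1, 3.05 ± 0.45 for WASF3, 1.45 ± 0.38 for CNN2 and 0.69 ± 0.16 for VIM (SE, adjusted p = 0.00274, 7.84e-07, 0.0192 and 0.00473). The COTL1 value rests on 17 reads in Kelly with GSK126 and 0 in Kelly with DMSO.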

How the results depend on the processing

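Over 24 alternative settings, the 29 single-gene results gave 473 values, of which 433 kept their direction and their side of the threshold, 40 kept their direction but were no longer called, and 0 reversed. With DESeq2, 0 members were called at day 2 in either line, 0 for the change at day 5 minus day 2 in Kelly and 0 over time in LAN-1. DESeq2 called 1 for the change in Kelly minus LAN-1 at day 5, and gave WASF3 and COTL1 no adjusted p there. It also ended the calls of TPM1 in Kelly at day 5 and of TPM3 in the mean of the 4. With limma-voom 1 was called in Kelly at day 2 and 0 over time in LAN-1. Fitting only the groups compared gave 2 over time in LAN-1 and 1 for Kelly minus LAN-1 at day 2 and leaving out the filter on low counts also gave 1 for Kelly minus LAN-1 at day 2. COTL1 in Kelly at day 5 was not tested when only those groups were fitted, and the mean of the 4 differences, which uses all groups, was not refitted that way. With each library left out, the members called for GSK126 in Kelly ranged from 3 to 6 (day 5) and 0 to 2 (day 2), and for GSK126 in LAN-1 from 0 to 1 on each day. The ranges were 6 to 9 for the mean of the 4, 0 to 1 for day 5 minus day 2 in Kelly, 1 to 4 for Kelly minus LAN-1 at day 5, 0 to 1 at day 2, 24 to 28 for the lines in DMSO and 0 to 2 over time in LAN-1. The cause of these changes was not tested. DMSO libraries of day 5 alone gave 25 line differences (15 higher in Kelly, 10 lower), where 28.0% of all genes were higher and 27.6% lower. Those of day 2 alone gave 25 (13 higher, 12 lower), where 27.7% of all genes were higher and 27.6% lower. Both settings were chosen after seeing the data. With the replicate number as a block, 5 members were called in Kelly at day 5 and 2 at day 2, and no count changed. Same-numbered libraries did not deviate together (correlations -0.0815 to 0.0616 over 8191 genes). With 2 libraries in each group this cannot decide whether the numbers pair libraries, and the labels do not say. At these depths a gene under 3.31 CPM can be missed in a library.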
